A study of Drosophila melanogaster with 4 samples.

Results

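The core enzymes of glycolysis were followed through 10 genes of the fruit fly (Drosophila melanogaster): Hex-A, Pgi, Pfk, Ald1, Tpi, Gapdh1, Gapdh2, Pgk, Eno and Pyk. They were taken by their FlyBase symbols, and all 10 were present among the 13932 genes of the deposited table, which lists Pyk as PyK in the annotation used for names. The samples were guts of Oregon R-C females, a wild-type laboratory strain, in 2 groups: flies fed a chemically defined food to which no manganese was added, and flies fed the variant with 5 ppm manganese. Each diet has 2 RNA-seq libraries, which carry the letters B and C in the table's headers, and on both diets 10 female and 10 male parents laid eggs for 5 days before the newly emerged daughters were moved to fresh food for another 5 days. No mutation or transgene is named for either group, and the labels do not say how many guts went into a library or whether a diet's libraries came from different flies, so the p-values cover no more than the variation among these 4 libraries, and that variation may be technical.

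Glycolysis splits glucose into pyruvate in the cytosol and makes ATP and NADH on the way. Its first steps spend ATP to trap and split the sugar, and its later steps recover ATP from the resulting trioses. Several of its enzymes, among them the kinases and enolase, work with a divalent metal ion, usually magnesium, and in the fly gut the same sugar phosphates also feed the pentose phosphate pathway, which supplies NADPH and ribose.

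Without manganese, 9 of the 10 enzymes had lower mean levels and 1, Gapdh1, had a higher one, and none of these differences passed the test. The widest difference was in Pgi, at 75.5% of its level with manganese (on the scale of RPKM + 1). The median log2 fold change was -0.22 over the 5 enzymes of the sugar-splitting first steps and -0.04 over the 5 of the later steps. Single values ran from -0.41 to -0.12 in the first steps and from -0.18 to 0.15 in the later ones. Without the 5 ppm library B the medians were -0.08 and -0.02, and without the no-manganese library C -0.20 and -0.10. This split was not among the planned comparisons, and the difference between the medians was not tested. Levels are RPKM, reads scaled to gene length and library total, so they can be compared between genes. Fold changes are no manganese minus 5 ppm manganese on log2(RPKM + 1), from a limma fit over the 7556 genes with a mean of at least 1 RPKM, and p-values are adjusted over all of these by Benjamini-Hochberg with a threshold of 0.05. Of the 10 members, 10 entered the fit and 0 were called, as were 0 of all genes tested (0%), with a smallest adjusted p of 0.261 over all genes and adjusted p between 0.802 and 0.986 for the members. At an unadjusted p under 0.05 there were 441 genes, 223 of them lower without manganese (2.95%), and 1 member, Pgi, among these.

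The libraries differ in their content of other tissues. Divisors recovered from the low values put the depth at 24399760 to 28010953 reads. The 10 enterocyte markers, which include trypsins, jonah proteases and a maltase, were all above 1 RPKM on average, and their summed level was 15663 and 16063 RPKM without manganese, against 15336 and 13698 RPKM with it. The 12 visceral muscle markers, of a tissue in which glycolytic enzymes are abundant, summed to 902 and 965 RPKM without manganese, against 928 and 942 RPKM with it, so that the diets overlapped. The 9 enteroendocrine markers summed to 302 and 293 RPKM without manganese, against 339 and 312 RPKM with it. This sum was lower without manganese and the enterocyte sum higher, each with no overlap. Among the enterocyte markers, only Jon65Aiii was higher with no overlap, at 3511 and 3964 RPKM without manganese, against 2209.8 and 2026 RPKM with it. Vha100-4 was lower with no overlap, at 48.8 and 50.6 RPKM against 74.5 and 54.5 RPKM, and the other enterocyte markers overlapped. CCHa2, the largest part of the enteroendocrine sum, had 129.7 and 111 RPKM without manganese, against 149 and 129.6 RPKM with it, with overlap. AstA and CCHa1 were lower without manganese and Dh31 was higher, each with no overlap, and the rest overlapped. The part of either cell type in the enzymes' values was not tested. The 14 ovary and eggshell markers in the table stood apart in 1 library: they summed to 548 RPKM in the no-manganese library C and to 0.671 RPKM in library B of that diet, against 1.84 and 4.62 RPKM with manganese. The sum over the fat body list of 8 genes, most of it from the yolk protein genes Yp1, Yp2 and Yp3, was higher in library C on both diets. It was 337 and 856 RPKM in B and C without manganese, against 214 and 484 RPKM with it. Values without the no-manganese library C are given for each enzyme below. The 3 Malpighian tubule markers were higher in the no-manganese library B, with sums of 4.18 and 0.336 RPKM in B and C without manganese, against 0.707 and 0.246 RPKM with it, and their part in the enzymes' values was not tested. In RNA from a whole organ, fewer cells of a type and less RNA in each cell cannot be told apart.

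The levels of the members spanned a far wider range than the step between diets in any of them, although some members lay close together. Gapdh2 had the highest level, 452 ± 17.9 RPKM (mean ± SD over the 4 libraries), which placed it at rank 254 of all genes. Ald1 followed at 229 ± 25.6 RPKM, and its lowest library lay above the highest of the next gene. Gapdh1 (169.8 ± 11.7 RPKM) and Pyk (164 ± 13.6 RPKM) could not be ordered, each being the higher in 2 of the 4 libraries. Eno had 143 ± 6.77 RPKM and Tpi 118 ± 15.2 RPKM; their ranges overlapped with each other, and that of Eno with Pyk, although within every library Pyk was above Eno and Eno above Tpi. Hex-A (74.9 ± 11 RPKM) and Pgk (70.6 ± 2.70 RPKM) were each the higher in 2 of the 4 libraries. Pgi had 52.8 ± 9.47 RPKM, and Pfk stood lowest at 17.6 ± 2.19 RPKM and rank 2822, clear of every other member in each library. Gapdh2 exceeded Pfk by 29.3 and 26.8 times in libraries B and C without manganese, against 25.4 and 22.3 times with it. From the recovered depth, the members had about 1683 to 24602 reads in a library, which gives a counting error of at most 2.44% and does not cover differences in preparation.

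**Figure D1:**
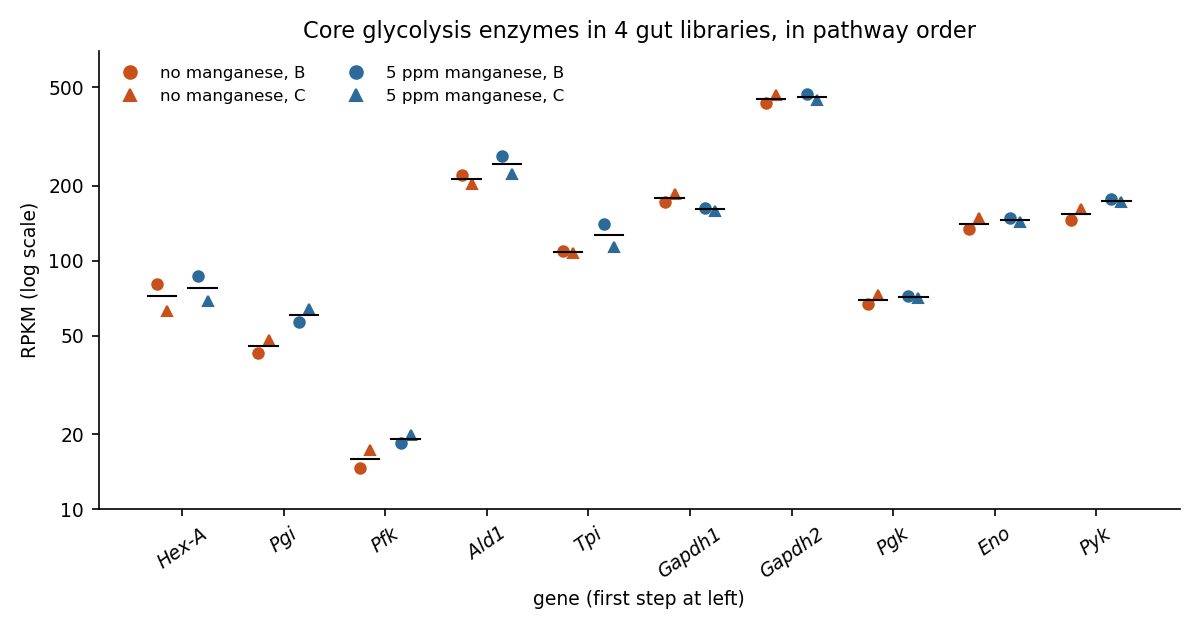
RPKM on a log axis for the 10 enzymes in pathway order, with no-manganese libraries (orange) left of 5 ppm libraries (blue); circles are library B, triangles library C and bars the mean of 2 libraries. Pfk lies lowest at 14.7 to 19.9 RPKM and Gapdh2 highest at 431 to 469 RPKM. This range is far wider than the step between diets in any gene. Some genes lie close together, and Gapdh1 with Pyk, and Hex-A with Pgk, change order between libraries.

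The first step is carried by Hex-A, a hexokinase that phosphorylates glucose. The gene (FBgn0001186) lies on chromosome X from 9585675 to 9589813 on the plus strand (dm6). It had 80.9 and 62.9 RPKM in libraries B and C without manganese, against 87.0 and 68.8 RPKM in B and C with it. Library B was the higher one on both diets, and this gap between letters, 0.36 and 0.33 on the log2 scale, was wider than the gap between diets. The log2 fold change was -0.12 ± 0.19 SE (95% confidence interval -0.61 to 0.38, limma, adjusted p = 0.937), and the diets overlapped. Without the no-manganese library C it was 0.06, and without the 5 ppm library B 0.05, so the sign rests on those libraries.

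Pgi, the isomerase that turns glucose 6-phosphate into fructose 6-phosphate, stands where glycolysis, gluconeogenesis and the pentose phosphate pathway meet. Its gene (FBgn0003074) lies on chromosome 2R from 8910900 to 8914069 on the minus strand. It had 42.5 and 48.1 RPKM without manganese, against 56.7 and 64.0 RPKM with it, or means of 45.3 ± 4.01 RPKM and 60.3 ± 5.19 RPKM (SD, n = 2 each). Both no-manganese libraries were below both 5 ppm libraries, by more than the step between letters within either diet. The log2 fold change of -0.41 ± 0.12 SE had the smallest p-value of the members but did not pass (95% confidence interval -0.73 to -0.08 before any adjustment, limma, adjusted p = 0.802). With each library left out in turn it stayed between -0.49 and -0.32, and it was -0.49 without the no-manganese library C.

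Pfk, phosphofructokinase, commits the sugar to glycolysis and is a main point of control by ATP and fructose 2,6-bisphosphate. It (FBgn0003071, chromosome 2R from 10109740 to 10117457, plus strand) had 14.7 and 17.4 RPKM without manganese, against 18.5 and 19.9 RPKM with it. The diets did not overlap, but the no-manganese library C lay close to the 5 ppm library B. The log2 fold change was -0.25 ± 0.12 SE (95% confidence interval -0.57 to 0.07, limma, adjusted p = 0.802). It ran from -0.36, without the no-manganese library C, to -0.14, without library B of that diet.

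Ald1, the aldolase that splits fructose 1,6-bisphosphate into 2 trioses, and Tpi, the isomerase that turns one triose into the other, follow in the pathway. Ald1 (FBgn0000064, chromosome 3R from 26254069 to 26261591, minus strand) had 222 and 204 RPKM without manganese, against 265 and 224 RPKM with it. Tpi (FBgn0086355, chromosome 3R from 30132981 to 30134599, minus strand) had 109.8 and 107 RPKM without manganese, against 140 and 114 RPKM with it. In both genes the 5 ppm library B stood above the other 3 libraries, which lay near each other. Log2 fold changes were -0.20 ± 0.14 SE for Ald1 (95% confidence interval -0.55 to 0.16) and -0.22 ± 0.14 SE for Tpi (-0.59 to 0.14), with limma adjusted p of 0.824 and 0.822. Without the 5 ppm library B both came to -0.08, and without the no-manganese library C they were -0.14 for Ald1 and -0.20 for Tpi. An antisense RNA gene covers 8.9% of the Ald1 exon bases, and whether reads were counted by strand is not stated, so reads of overlapping genes on opposite strands may be mixed.

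The oxidation of glyceraldehyde 3-phosphate, the step that makes NADH, has a pair of genes. Gapdh1 (FBgn0001091, chromosome 2R from 7791901 to 7793380, minus strand) had 172 and 185 RPKM without manganese, against 163 and 159 RPKM with it. It was the 1 member with both no-manganese libraries above both 5 ppm libraries, at a log2 fold change of 0.15 ± 0.11 SE (95% confidence interval -0.13 to 0.43, limma, adjusted p = 0.838). Gapdh2 (FBgn0001092, chromosome X from 15868145 to 15869661, plus strand) had 431 and 464 RPKM without manganese, against 469 and 444 RPKM with it, with overlap (-0.03 ± 0.12 SE, 95% confidence interval -0.35 to 0.29, limma, adjusted p = 0.986). Without the no-manganese library C the values were 0.10 for Gapdh1 and -0.08 for Gapdh2. Gapdh1 and Gapdh2 are close copies, and how reads that match both were counted is not stated, so their separate values are uncertain. Their summed level was 603 and 649.7 RPKM without manganese, against 632 and 603 RPKM with it, with overlap. Gapdh1 made up 28.5% and 28.5% of the sum without manganese, against 25.8% and 26.4% with it. The share was higher without manganese in both libraries, which is as far as 4 libraries can go: an exact permutation test of 2 against 2 cannot give a p below 0.333.

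**Figure D2:**
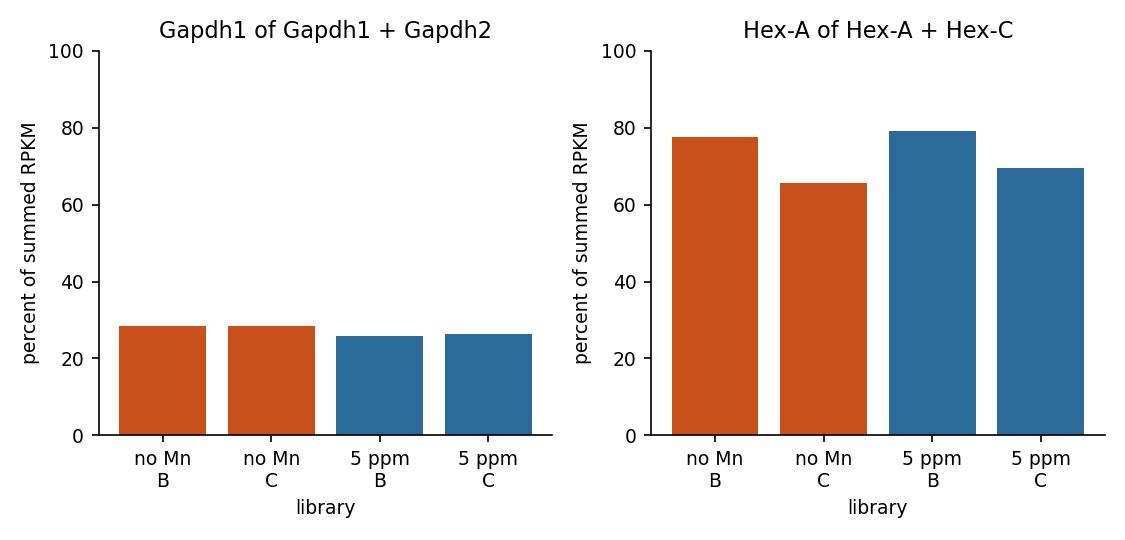
Percent of summed RPKM contributed by Gapdh1 to Gapdh1 plus Gapdh2 (left) and by Hex-A to Hex-A plus Hex-C (right), 1 bar for each library, no manganese in orange and 5 ppm in blue. Without manganese the Gapdh1 share is 28.5% in either library, against 25.8% and 26.4% with it, while the Hex-A share follows the library letter, at 77.6% and 79.1% in B and 65.6% and 69.6% in C.

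Pgk and Eno, both past the splitting of the sugar, overlapped between diets as Gapdh2 did. Pgk, the kinase that makes the first ATP of the pathway (FBgn0250906, chromosome 2L from 2746880 to 2753068, minus strand), had 66.7 and 72.5 RPKM without manganese, against 72.4 and 70.9 RPKM with it. Eno, the enolase that makes phosphoenolpyruvate (FBgn0000579, chromosome 2L from 1724768 to 1729636, minus strand), had 134 and 148 RPKM without manganese, against 149 and 143 RPKM with it. In both genes the no-manganese library B was the lowest of the 4 and the other 3 lay together. Log2 fold changes were -0.04 ± 0.10 SE for Pgk (95% confidence interval -0.31 to 0.23) and -0.05 ± 0.11 SE for Eno (-0.35 to 0.24), with limma adjusted p of 0.968 and 0.964. Without the no-manganese library B both values were 0.02, and without library C of that diet they were -0.10 and -0.12. These intervals still include differences of about the size seen in Pfk, so equal levels are not shown. Genes on the opposite strand cover 3.1% of the exon bases of Pgk and 9.7% of those of Eno. These neighbours, Cwc25 and Rrp40, were at 9.63 to 12.0 RPKM and 2.87 to 3.61 RPKM over all libraries.

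Pyk, the pyruvate kinase that closes the pathway and makes its last ATP (FBgn0267385, chromosome 3R from 22367536 to 22372746, plus strand), had 146 and 161 RPKM without manganese, against 177 and 172 RPKM with it. Unlike Pgk and Eno next to it in the pathway, it had no overlap between diets. Its log2 fold change was -0.18 ± 0.11 SE (95% confidence interval -0.48 to 0.11, limma, adjusted p = 0.822) and stayed between -0.25, without the no-manganese library C, and -0.11, without library B of that diet.

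Across the pathway, 5 of the 10 members (Pgi, Pfk, Ald1, Tpi and Pyk) were lower without manganese with no overlap between diets, where 15.2% of all genes tested were. In Ald1 and Tpi the no-manganese library B nearly met the 5 ppm library C. These libraries had 222 and 224 RPKM in Ald1, and 109.8 and 114 RPKM in Tpi. In the other direction, 1 of 10 had no overlap, beside 21.7% of all genes. Log2 fold changes were below 0 in 9 of 10 members and in 43.6% of all genes. The median over the members was -0.15, beside 0.02 over all genes tested. All members were measured in the same 4 libraries, so these counts are not separate observations. The median was -0.13 without the no-manganese library C and -0.05 without the 5 ppm library B, in which the members' summed level was highest. That sum was 1419 and 1470.1 RPKM without manganese, against 1597 and 1479.7 RPKM with it. As a share of all RPKM the 10 genes took 0.237% and 0.259% without manganese, against 0.272% and 0.259% with it, and library C was the same on both diets.

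**Figure D3:**
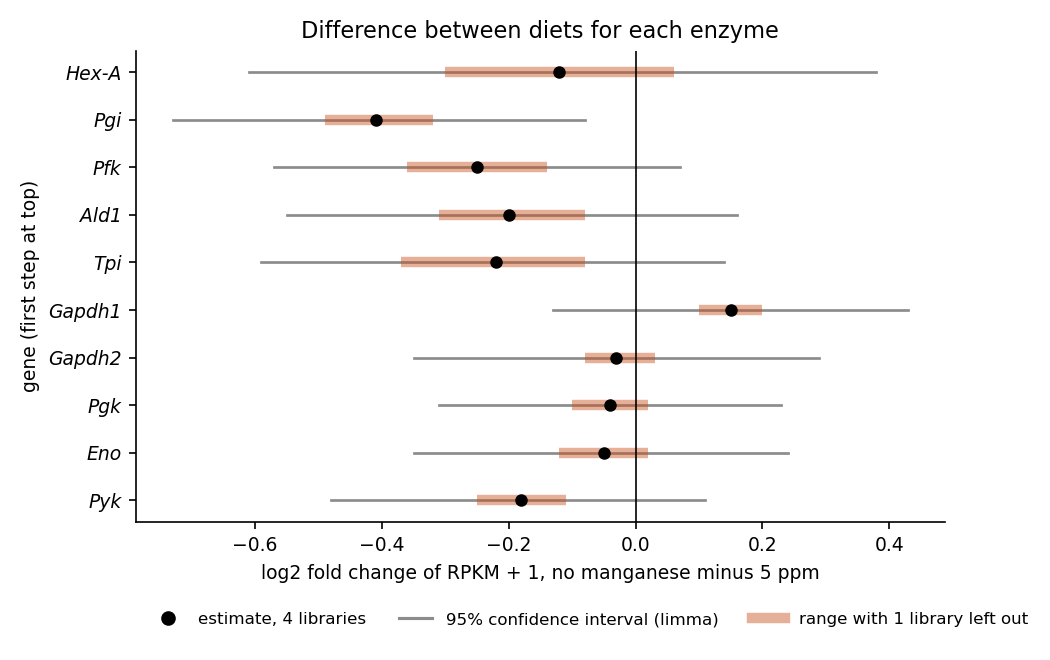
Log2 fold change of RPKM + 1, no manganese minus 5 ppm, for each enzyme from the first step at the top to the last at the bottom; dots are estimates from 4 libraries, grey lines 95% confidence intervals from limma and orange bars the range with 1 library left out. Pgi at -0.41 has the 1 interval that leaves out 0 (before adjustment), and the ranges of Hex-A, Gapdh2, Pgk and Eno cross 0.

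Ratios within a library do not depend on its total, and some of them separated the diets; these ratios were chosen after the values were seen. Pgi stood to Gapdh1 as 0.247 and 0.260 without manganese, against 0.348 and 0.403 with it. The ratio of Pyk to Gapdh1 was 0.849 and 0.870 without manganese, against 1.09 and 1.08 with it, so that Gapdh1 was the higher of the pair without manganese and Pyk the higher with it. Gapdh1 was higher without manganese and Pgi and Pyk lower, each with no overlap. Their ratios therefore had to separate the diets and add no support of their own. They also rest on the separate value of Gapdh1, which is uncertain for the reason given above. Pfk to Pgk was 0.221 and 0.240 without manganese, against 0.255 and 0.281 with it. Pfk had no overlap between diets by itself and Pgk differed little, so this ratio largely repeats the values of Pfk. By contrast, Hex-A to Pgi was 1.91 and 1.31 without manganese, against 1.54 and 1.08 with it, which overlapped and followed the letters. The summed level of the first 5 enzymes relative to that of the later 5 was 0.495 and 0.426 without manganese, against 0.551 and 0.498 with it; the diets did not overlap, but the no-manganese library B and the 5 ppm library C nearly met.

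Of 14 other glycolysis genes, 3 were expressed enough to be tested, and none was called. Pglym78, the phosphoglycerate mutase that links Pgk to Eno, had 74.8 and 81.8 RPKM without manganese, against 83.0 and 87.8 RPKM with it (log2 fold change -0.12 ± 0.11 SE, limma, adjusted p = 0.865). Hex-C, a second hexokinase, had 23.4 and 33.0 RPKM without manganese, against 23.0 and 30.0 RPKM with it. It was higher in library C on both diets, the opposite of Hex-A, so that Hex-A made up 77.6% and 65.6% of the pair without manganese, against 79.1% and 69.6% with it. Pfrx, which makes and breaks the Pfk activator fructose 2,6-bisphosphate, had 20.5 and 31.5 RPKM without manganese, against 26.8 and 29.6 RPKM with it. The remaining 11 were below the level tested: the hexokinases Hex-t1 and Hex-t2 and the pyruvate kinase relative CG2964 were listed at 0 in every library, and CG7069, the gene just downstream of Pyk, reached at most 0.703 RPKM.

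The pentose phosphate pathway, which branches off at the substrate of Pgi, lay lower without manganese in every gene that could be tested. Of 8 genes, 7 were tested, 7 were lower and 7 had no overlap between diets, beside the 15.2% of all genes given above, and the median log2 fold change was -0.31. None was called, and 5 of the 7 were at an unadjusted p under 0.05 (limma). Of all genes tested, 2.95% were at such a p and lower without manganese. CG8036, a transketolase of the non-oxidative branch, had 119.9 and 119 RPKM without manganese, against 187 and 225 RPKM with it. Its log2 fold change of -0.78 ± 0.13 SE was the widest of the list (limma, adjusted p = 0.776; -0.91 to -0.64 with 1 library left out). Zw, the glucose 6-phosphate dehydrogenase that opens the pathway and makes NADPH, had 25.0 and 21.5 RPKM without manganese, against 30.0 and 35.8 RPKM with it. Pgd, which makes the second NADPH, had 45.4 and 43.6 RPKM without manganese, against 64.7 and 56.4 RPKM with it. Their log2 fold changes were -0.48 ± 0.14 SE and -0.43 ± 0.11 SE (limma, adjusted p = 0.802 for both). Rpi, the ribose 5-phosphate isomerase, had 30.0 and 29.4 RPKM without manganese, against 36.4 and 35.4 RPKM with it. Pgls, which lies between Zw and Pgd, and Taldo, the transaldolase, had log2 fold changes of -0.31 and -0.27, and Rpe, an epimerase, -0.14. The 10 glycolysis enzymes together were 3.06 and 3.30 times the 8 pentose phosphate genes without manganese, against 2.69 and 2.27 times with it. The list was chosen with earlier results of these data known, among them the lower values of Zw and Pgd. Neither those values nor the counts for the list stand as separate support.

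**Figure D4:**
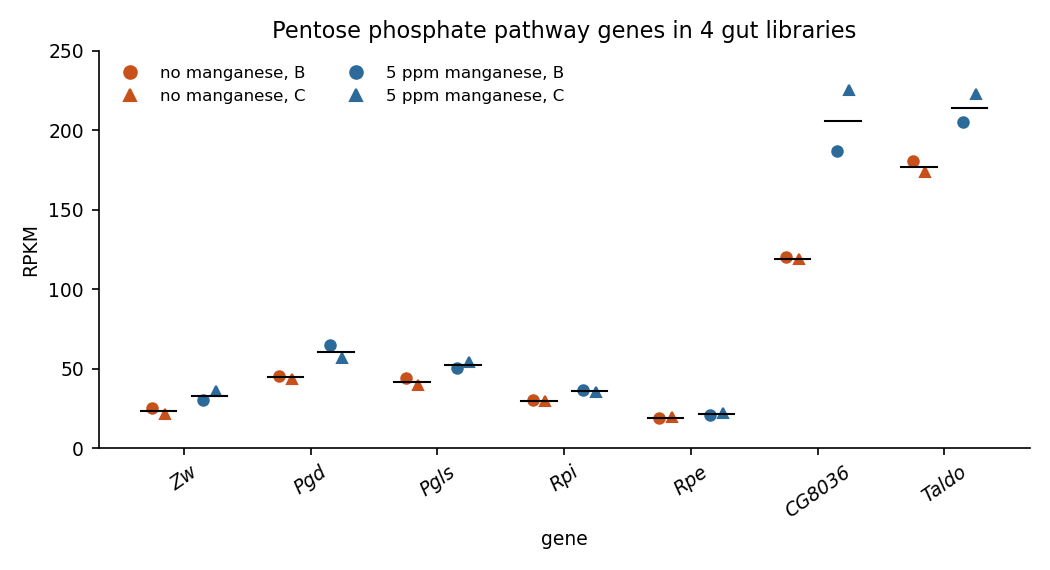
RPKM of the 7 tested pentose phosphate genes, with no-manganese libraries (orange) left of 5 ppm libraries (blue); circles are library B, triangles library C and bars the mean of 2 libraries. For CG8036 the no-manganese libraries sit at 119.9 and 119 RPKM and the 5 ppm libraries at 187 and 225 RPKM, and in none of the 7 genes do the diets overlap.

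Genes of the fate of pyruvate and glycerol phosphate did not share a direction. Among the 13 of 14 genes that entered the fit, 7 lay higher and 6 lay lower, their median log2 fold change was 0.05, and none was called. Gpdh1, which draws on a triose made by Ald1 and regenerates cytosolic NAD, had 161 and 157 RPKM without manganese, against 186 and 207 RPKM with it (-0.30 ± 0.11 SE, limma, adjusted p = 0.802). A non-coding gene on the other strand covers 22.1% of its exon bases. Mpc1, a subunit of the mitochondrial pyruvate carrier, had 128 and 128 RPKM without manganese, against 159 and 137 RPKM with it. CG9399, named as a carrier subunit in RefSeq, had 59.0 and 54.0 RPKM without manganese, against 49.8 and 51.0 RPKM with it. Mpc1 and CG9399 thus lay on opposite sides, at -0.20 ± 0.12 SE (-0.10 without the 5 ppm library B) and 0.16 ± 0.10 SE (0.10 without the no-manganese library B), both uncalled. CG9396, the gene next to CG9399 and in the same list, was looked up after the values were seen. It had 96.6 and 66.7 RPKM without manganese, against 87.3 and 77.2 RPKM with it, with overlap (-0.03 ± 0.21 SE). Pdk, the kinase that switches pyruvate dehydrogenase off, had a log2 fold change of -0.24, and -0.03 without the 5 ppm library C. Ldh, the lactate dehydrogenase, was looked up after the values were seen and had 44.6 and 34.8 RPKM without manganese, against 42.4 and 41.8 RPKM with it. PCB, pyruvate carboxylase, a manganese enzyme in other species, was also looked up in that way and had 43.6 and 55.1 RPKM without manganese, against 61.3 and 43.6 RPKM with it, with full overlap.

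In gluconeogenesis and glycogen metabolism 7 of 8 tested genes were lower, beside 43.6% of all genes, and none was called. The median log2 fold change was -0.28 and lay between the values of AGBE and UGP given below. Of the 8, 2 were lower with no overlap between diets, beside 15.2% of all genes, and the difference in share was not tested. fbp, the bisphosphatase that runs against Pfk, had 75.9 and 57.8 RPKM without manganese, against 103 and 88.3 RPKM with it (-0.52 ± 0.18 SE, limma, adjusted p = 0.802; -0.33 without the no-manganese library C). Pfk and fbp catalyse opposing reactions, and fbp mRNA was the more abundant of the pair in every library. The debranching enzyme CG9485 had a log2 fold change of -0.35, the branching enzyme AGBE -0.31 and UGP, which makes UDP-glucose, -0.25. Without the 5 ppm library C, the highest library for each of the 3, these were -0.20, -0.12 and 0.00, and AGBE and UGP overlapped between diets. Pepck1 was listed at 0 in every library. Its exons are covered in full by CG45087 on the same strand, also at 0, so that its reads may not have been assigned to either gene. Pepck2, looked up after the values were seen, had 15.0 and 12.3 RPKM without manganese, against 34.4 and 12.0 RPKM with it, and 1 library, the 5 ppm library B, made the difference.

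Known regulators of sugar metabolism gave 5 lower and 4 higher genes in a list of 9, all in the fit, with a median log2 fold change of -0.02 and none called. The widest value was that of sug, a zinc finger factor that responds to dietary sugar, with 20 and 48.3 RPKM without manganese, against 4.75 and 16.6 RPKM with it. Its log2 fold change of 1.68 ± 0.68 SE did not pass (limma, adjusted p = 0.802), and it was also higher in library C on both diets and ran from 0.87 to 2.49 with 1 library left out. The summed fat body markers were at 337 and 856 RPKM without manganese, against 214 and 484 RPKM with it. They were likewise higher in library C on both diets and, letter for letter, higher without manganese. The largest sum, 856 RPKM, was in the library where the ovary and eggshell markers stood apart at 548 RPKM. The part of either tissue in the sug values was not tested. sima, the fly hypoxia-inducible factor, had 19.0 and 20.1 RPKM without manganese, against 23.4 and 31.8 RPKM with it (-0.46 ± 0.17 SE, limma, adjusted p = 0.802; -0.25 without the 5 ppm library C). ERR, the nuclear receptor that switches glycolytic genes on in fly larvae, had 9.29 and 8.16 RPKM without manganese, against 9.67 and 9.99 RPKM with it, and 52.2% of its exon bases lie under genes of the opposite strand. crc, the fly ATF4, had a log2 fold change of 0.17 (0.06 without the no-manganese library B), and a same-strand gene listed at 0, CG46314, covers 73.5% of its exon bases.

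**Figure D5:**
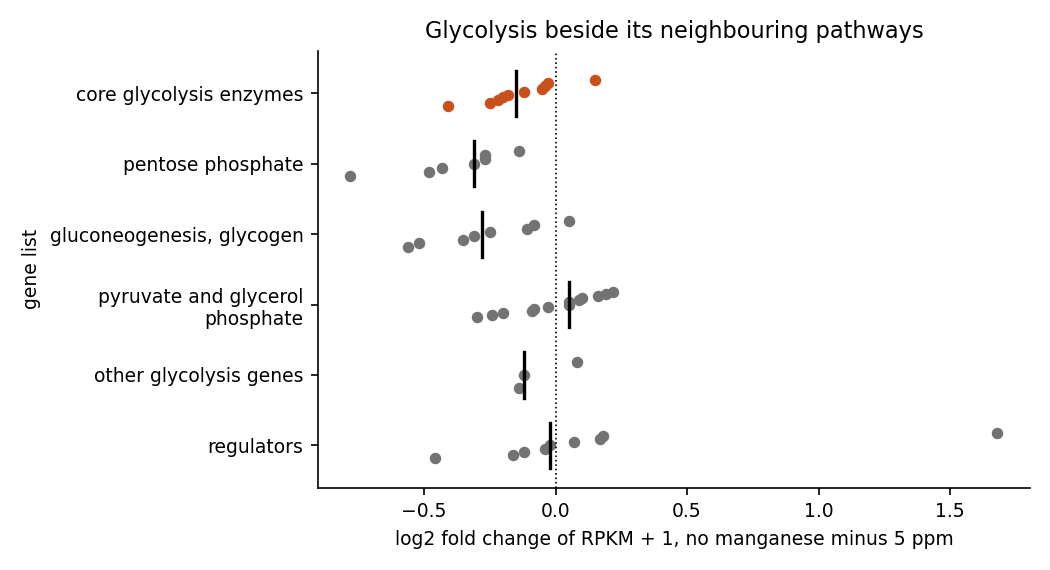
Log2 fold change of RPKM + 1, no manganese minus 5 ppm, for every tested gene of each list (dots) with the list's median (bars); glycolysis is in orange and the dotted line marks 0. Medians are -0.15 for glycolysis, -0.31 for the pentose phosphate list, -0.28 for gluconeogenesis and glycogen and 0.05 for pyruvate and glycerol phosphate, and sug stands alone at 1.68.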

How the data were processed

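Gut RNA was extracted with a micro-scale spin kit and read on an Illumina instrument, per the labels' protocols. RPKM values, 1 column a library, are what the authors deposited; the submitters' processing notes list STAR 2.5.2b, DESeq2 and dm6 with no role for any of them. Annotation, counter and strand setting: not given in the sources used here. Columns name diet and letter while the labels number the samples, so columns were mapped to diets only; 0 columns were left out. Symbols came from the gene name table (13852 of 13932 identifiers matched), and positions and exon lengths from Ensembl's annotation of the same assembly.

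The divisor of each library was found as the number of reads for which RPKM times exon length gave whole reads: among values worth under 20 reads, 84.6% to 85.6% lay no more than 0.02 from a whole read. Within a diet, 0 and 2 tested genes had identical values in both libraries, so no column is a copy. Log2(RPKM + 1) was fitted with limma 3.58.1 (R 4.3.3), over genes with a mean of at least 1 RPKM, a variance trend and 2 residual degrees of freedom. The code was also run on simulated data with independent libraries and planted changes larger than those of the members. That run does not bear on differences of the members' size. A fold change on this scale understates that of low genes.

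The members and lists were chosen with earlier results of these data known. All 10 members are named with each library's value; other genes are the up to 4 of each list with the smallest unadjusted p, unless said otherwise, and the pentose phosphate and untested genes named beyond these were added after values were seen. Promoter motifs were not searched, since promoter sequences were not used here. Alternatives were other pseudocounts (0.1 and 5), filters and scalings, removal of a curve on exon length, other variance models, a block and each library left out.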

Additional observations from a re-analysis of the deposited data

How the results depend on the processing

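In the 11 settings that kept all 4 libraries, 0 members were called and 9 of 10 were lower without manganese. Their smallest limma adjusted p was 0.298 to 0.928 over these settings, and the median log2 fold change ran from -0.18 to -0.14. With 1 library left out, 0 members were called, 6 to 9 were lower and the median ran from -0.20 to -0.05. Over all genes, 0 were called in the 11 settings, and 0 to 11 with 1 library left out: 11 without the no-manganese library B, 5 without library C of that diet and 0 without either 5 ppm library. In those fits Hex-A ran from -0.30 to 0.06, Gapdh2 from -0.08 to 0.03, Pgk from -0.10 to 0.02, Eno from -0.12 to 0.02, Hex-C from -0.16 to 0.32 and Pfrx from -0.44 to 0.15; the cause was not tested. A lone library is there assumed to vary like the other diet's. The other 6 members and 17 of 19 related genes did not change sign in any setting. As 1 value, Gapdh1 plus Gapdh2 gave 0.02, on the other side of 0 from Gapdh2 alone at -0.03. With the library letters as a replicate block, 0 genes were called and Pgi was at -0.41 (limma, adjusted p = 0.298). Letters are in no label; B minus C correlated at 0.341 between the diets across 7556 genes, so whether letters pair the libraries is not known. Fold changes ran with exon length across genes (Spearman's rho -0.27), and with that curve removed the members' median was -0.15. Counting error was at most 2.44% for the members; each diet has 2 libraries.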
